A study of Mus musculus with 8 samples.

Results

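Glutathione transferases and antioxidant enzymes were examined in the livers of NASH diet-fed mice. The genes were taken by name from the whole count table, as every row whose GENCODE M21 symbol is that of an alpha, kappa, mu, omega, pi or theta glutathione transferase (Gst), a microsomal transferase (Mgst), a glutathione peroxidase (Gpx) or a peroxiredoxin (Prdx), together with 13 listed genes of glutathione synthesis, the Nrf2-Keap1 axis, superoxide dismutases and catalase. This gave 53 of the 46517 genes in the table, and 45 of the 53 passed the filter on low counts and were tested. The other 8 (Gpx2, Gpx5, Gpx6, Gsto2, Gstt4, Mgst2, Prdx2-rs3 and Prdx6b) had at most 14 counts in any mouse, and Prdx2-rs3, a processed pseudogene, had 0 in all 8.

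The data are RNA sequencing of whole liver from 4 MøFoxO1-KO males (FoxO1 loxP/loxP with Lyz2-Cre, replicates 26 to 29) and 4 male WT littermates (FoxO1 loxP/loxP without Cre, replicates 22 to 25), all C57BL/6. Mice of both groups began the NASH diet at 6 weeks of age, ate it for 25 weeks and were fasted for 16 hours before the liver was taken at 31 weeks. There was no group on regular chow, and the WT littermates carry the floxed alleles too. Cre driven by Lyz2, the lysozyme gene of myeloid cells, deletes FoxO1 in macrophages, monocytes and neutrophils throughout the body, so the deletion is not limited to the liver. The comparison addresses how transcripts of the whole liver differ when myeloid cells lack FoxO1 during NASH diet feeding.

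Glutathione is the main small thiol of the hepatocyte. Glutathione transferases join it to reactive compounds such as drug metabolites and lipid peroxidation products, glutathione peroxidases and peroxiredoxins reduce peroxides, and superoxide dismutases and catalase dispose of superoxide and hydrogen peroxide. The transcription factor Nrf2 (Nfe2l2), held in check by Keap1, induces many of these genes through the antioxidant response element, and liver holds very large amounts of several of the enzymes.

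Total counts ranged from 15253218 to 18025481 per mouse, with medians of 16361030 in WT littermates and 16441784 in MøFoxO1-KO mice, and the 53 genes took between 2.22 and 2.70% of them. Normalized counts below are counts divided by the library size after TMM scaling, times the mean library size. Fold changes are from edgeR's quasi-likelihood test of all 13278 tested genes, as log2 of MøFoxO1-KO over WT with their standard error (SE), and each adjusted P is a Benjamini-Hochberg value over those genes. Foxo1 itself had 403 ± 73.8 normalized counts (SD, n = 4) in WT littermates and 359 ± 73.3 (SD, n = 4) in MøFoxO1-KO livers, a log2 fold change of -0.17 (SE 0.18, edgeR adjusted P = 0.686). Whole liver holds Foxo1 from cells that do not express Lyz2-Cre, so this value does not check the genotype labels.

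Gstp1 and Gstp2 of the pi class lay higher in MøFoxO1-KO livers, and Mgst3, Nqo1 and several mu and alpha class transferases lay lower, but only Mgst3 passed the edgeR adjusted P. Of the 45 tested genes, 17 had a positive and 28 a negative log2 fold change, with a median of -0.13 against -0.01 over all tested genes. At an edgeR adjusted P under 0.05, 1 of the 45 (2.22%, lower) passed, against 0.294% of all tested genes in either direction and 0.173% lower. At the study's additional limit of an absolute log2 fold change over 1.5, edgeR called 0 of the 45 (0.188% of all tested genes). There limma-voom called 0 and DESeq2 called 2, and their shares of all tested genes at this limit were not computed. DESeq2 passed 3.97% of all tested genes when no fold limit was set. Without adjustment, 5 were higher and 12 lower at an edgeR P under 0.05 (11.1 and 26.7%), where 8.65 and 8.06% of all tested genes were.

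In 12 of the 45 genes (26.7%) all 4 MøFoxO1-KO mice lay on one side of all 4 WT littermates, against 9.71% of all tested genes. The 4 that lay above were Gstp1, Gstp2, Prdx4 and Prdx5 (8.89%, against 5.00% of all tested genes), and the 8 that lay below were Mgst3, Nqo1, Gpx3, Gsta2, Gsta4, Gstm1, Gstm3 and Gstm4 (17.8%, against 4.71%). DESeq2 passed 12 of the 45 at its adjusted P under 0.05, 4 higher and 8 lower (8.89 and 17.8%), where it passed 2.24 and 1.72% of all tested genes (3.97% in either direction). These are not the same 12: Gsta1, whose groups overlap, passed, and Gsta4 did not (DESeq2 adjusted P = 0.0517). The exact two-sided permutation test of a single gene over 70 splits of 4 against 4 mice allows no P under 0.0286. Each of the 12 genes whose groups do not overlap has that P through the separation itself, so it adds no support. In RNA from whole liver, fewer cells of a type and less RNA per cell cannot be told apart.

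**Figure D1:**
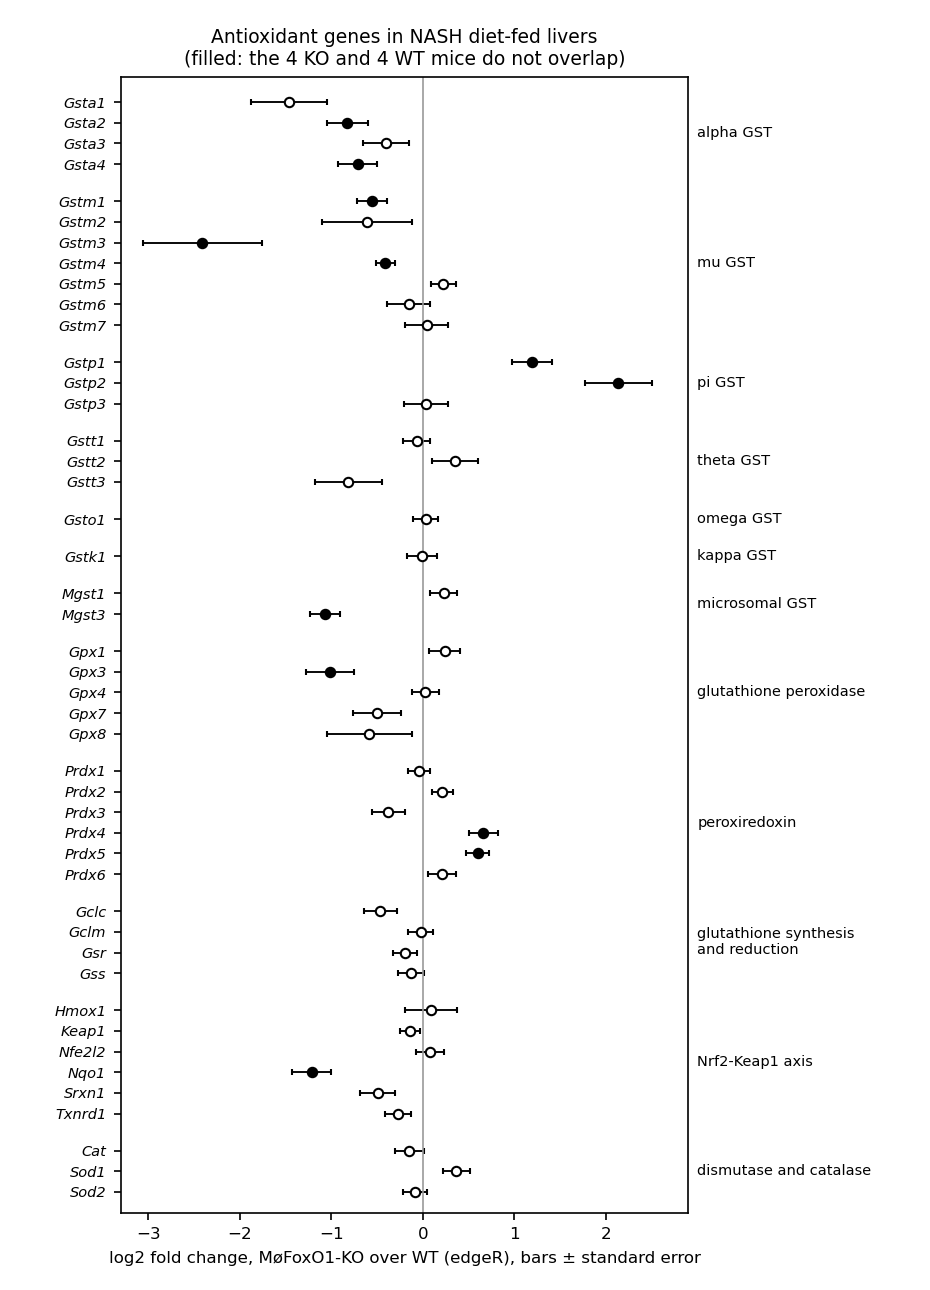
The log2 fold change of each of the 45 tested genes (x axis, MøFoxO1-KO over WT, edgeR) with bars of ± 1 SE, grouped by enzyme class down the y axis. Filled points mark the 12 genes whose groups do not overlap, from Gstm3 at -2.41 to Gstp2 at 2.14.

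Only Mgst3 of the 4 genes with the lowest edgeR P passed the adjusted P. The promoters of these 4 are shown because Nrf2 acts through short promoter elements. They are the 250 bases before the RefSeq start on the gene's own strand (the minus strand of GRCm38.p6 for all 4), and capitals mark matches to TGANNNNGC, a relaxed core of the antioxidant response element, on either strand. Mgst3 is at chr1:167393842-167394091, Gstp2 at chr19:4042222-4042471, Nqo1 at chr8:107403206-107403455 and Gstp1 at chr19:4037913-4038162.
Mgst3: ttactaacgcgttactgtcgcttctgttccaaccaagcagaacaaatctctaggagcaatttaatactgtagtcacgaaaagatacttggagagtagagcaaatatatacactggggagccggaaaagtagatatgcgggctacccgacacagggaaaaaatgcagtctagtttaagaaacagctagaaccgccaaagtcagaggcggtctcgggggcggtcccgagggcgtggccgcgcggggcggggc
Nqo1: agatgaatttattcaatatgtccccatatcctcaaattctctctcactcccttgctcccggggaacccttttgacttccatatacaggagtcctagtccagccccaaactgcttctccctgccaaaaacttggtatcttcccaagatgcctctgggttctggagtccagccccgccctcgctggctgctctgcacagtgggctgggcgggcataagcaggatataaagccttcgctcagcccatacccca
Gstp1: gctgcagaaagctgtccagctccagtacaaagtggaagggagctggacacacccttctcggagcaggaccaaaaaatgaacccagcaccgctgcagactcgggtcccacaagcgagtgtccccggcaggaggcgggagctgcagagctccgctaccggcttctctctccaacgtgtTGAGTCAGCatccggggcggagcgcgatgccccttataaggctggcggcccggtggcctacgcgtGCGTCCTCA
Gstp2: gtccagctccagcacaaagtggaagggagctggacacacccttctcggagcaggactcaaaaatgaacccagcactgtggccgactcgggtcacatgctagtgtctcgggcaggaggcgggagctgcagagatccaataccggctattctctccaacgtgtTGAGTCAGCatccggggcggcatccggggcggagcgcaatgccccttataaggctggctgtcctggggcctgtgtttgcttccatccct
Gstp1 and Gstp2 share the letters TGAGTCAGC, 74 to 66 bases before the start of Gstp1 and 89 to 81 bases before that of Gstp2, and the windows of these neighbours are 78.5% identical when aligned. Gstp1 has a further match on the other strand in its last 9 bases, which lie inside the gene as the count table has it (likewise the last 15 bases of the Gstp2 window). The windows of Mgst3 and Nqo1 hold no match, and bases further upstream were not searched.

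TGANNNNGC was chosen after these sequences were seen, and it includes the stricter TGACNNNGC. Of the 53 genes, 45 have a RefSeq promoter entry, and 23 of these (51.1%) hold TGANNNNGC, against 38.7% of 27025 genes. Some genes have several windows, and a match in any of them counts here. The stricter TGACNNNGC was found in 9 of the 45 (20.0%), against 11.5% of all genes: Gclm, Gsta3, Gstm5, Gstm7, Mgst1, Nfe2l2, Prdx1, Sod1 and Txnrd1. None of these passed the edgeR adjusted P or had groups that did not overlap. The stricter core asks for a C where the TGAGTCAGC of Gstp1, Gstp2 and Srxn1 has a G, so its letters leave these genes out. Whether either core goes with the fold changes was not tested. TGTTTAC, the core read by forkhead factors such as FoxO1, was found in 0 of the 45 genes and in 3.54% of all genes, on either strand. Gclc, Gsr, Gsta4, Gstt2, Hmox1, Prdx2-rs3, Prdx6 and Prdx6b had no entry.

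The pi class, whose enzymes are known in mouse liver for conjugating reactive drug metabolites, held the 2 largest positive log2 fold changes. Gstp1 (ENSMUSG00000060803) had 15687, 11667, 23098 and 13177 normalized counts in WT littermates 22 to 25 and 33666, 43434, 31296 and 36793 in MøFoxO1-KO mice 26 to 29. Every MøFoxO1-KO mouse lay above every WT littermate, and WT 24 stood nearest to them. The means were 15907 ± 5072 and 36297 ± 5263 (SD, n = 4 each), a log2 fold change of 1.19 (SE 0.22, 2.28-fold, edgeR adjusted P = 0.0654). Without WT 24 the log2 fold change was 1.42 and the edgeR adjusted P was 0.0177, and without any other mouse it did not pass. With an offset for gene length the log2 fold change was smaller, at 0.866 (edgeR adjusted P = 0.115). Per length, Gstp1 stood at 1283 RPKM in WT littermates and 2928 in MøFoxO1-KO livers.

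Gstp2 (ENSMUSG00000038155), the neighbouring copy, was far less abundant at 4.95 RPKM in WT littermates and 21.8 RPKM in MøFoxO1-KO livers. Its normalized counts were 89.7, 43.2, 71.8 and 44.7 in WT littermates and 313, 411, 125 and 252 in MøFoxO1-KO mice. The groups did not overlap, and KO 28 was the lowest of its group. The log2 fold change was 2.14 (SE 0.37, 4.39-fold, edgeR adjusted P = 0.052), and without KO 28 it was 2.39 with an edgeR adjusted P of 0.00867. With an offset for gene length it was 1.82 (edgeR adjusted P = 0.0862). Of the 50-base stretches in Gstp2 transcripts, 54.3% also occur in another gene and 49.1% in Gstp1, and 33.7% of those in Gstp1 occur in Gstp2. How reads that match several genes were counted is not given in the sources used here. The number of Gstp1 counts per Gstp2 count ranged from 175 to 322 in WT littermates and from 106 to 250 in MøFoxO1-KO mice, which overlapped. Whether reads of Gstp1 were counted on Gstp2 was not tested. Gstp3, the remaining gene of the class, had 304 ± 74.0 and 311 ± 98.4 normalized counts (SD, n = 4 each), with a log2 fold change of 0.03 (SE 0.24) that was -0.287 with an offset for gene length.

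Of the 7 mu class genes, 3 had groups that did not overlap, all lower in MøFoxO1-KO mice (42.9%, against 4.71% of all tested genes). Gstm1 (ENSMUSG00000058135) was the most abundant per length of all 53 genes in WT littermates, at 2856 RPKM, and stood at 1942 RPKM in MøFoxO1-KO livers. Its normalized counts were 84144, 66758, 61069 and 63562 in WT littermates and 46528, 55639, 45698 and 39461 in MøFoxO1-KO mice. The lowest WT littermate, 24, was above the highest MøFoxO1-KO mouse, 27. The log2 fold change was -0.56 (SE 0.16, edgeR adjusted P = 0.158). Gstm4 had 1542, 1683, 1550 and 1483 normalized counts against 1253, 1189, 1105 and 1165, also separate and with little spread within each group, at -0.41 (SE 0.10, edgeR adjusted P = 0.12).

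Gstm3 (ENSMUSG00000004038) had the most negative log2 fold change of the 45 genes and varied widely within each group. Normalized counts were 4025, 4327, 787 and 953 in WT littermates and 690, 754, 164 and 294 in MøFoxO1-KO mice, so that WT 24 and WT 25 stood close to KO 26 and KO 27. The log2 fold change was -2.41 (SE 0.65, edgeR adjusted P = 0.137). Gstm2, described here because it varied among the same mice, had 2232, 2278, 576 and 1362 normalized counts in WT littermates and 1409, 1732, 424 and 662 in MøFoxO1-KO mice. WT 24 and KO 28 were the lowest of their groups in Gstm2, Gstm3 and Gstm6, and Gstm6 had 733 and 758 normalized counts in them, against 942 to 1422 in the other 6 mice. Gstm2 and Gstm6 overlapped between groups, with log2 fold changes of -0.61 (SE 0.49) and -0.15 (SE 0.23), and Gstm5 and Gstm7 had 0.22 (SE 0.14) and 0.04 (SE 0.24). Between 5.65 and 28.8% of the 50-base stretches of Gstm1, Gstm2, Gstm3, Gstm5 and Gstm6 occur in another gene, and 0% of those of Gstm4.

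All 4 alpha class genes had negative log2 fold changes, from -1.46 to -0.40, and 2 of the 4 had groups that did not overlap (4.71% of all tested genes lay lower without overlap). Gsta4, known for conjugating 4-hydroxynonenal, a product of lipid peroxidation, had 1712, 1589, 1265 and 1138 normalized counts in WT littermates and 541, 993, 1057 and 889 in MøFoxO1-KO mice. Its groups were separate, and KO 26 was the lowest mouse, at a log2 fold change of -0.71 (SE 0.21, edgeR adjusted P = 0.165). Gsta2 had 1195, 1036, 864 and 805 against 405, 415, 770 and 612 normalized counts, also separate, with KO 28 just below WT 25, at -0.82 (SE 0.22, edgeR adjusted P = 0.132). Other genes share 49.8% of the 50-base stretches of Gsta2, and Gsta1 alone shares 36.0%.

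Gsta1 had 269, 821, 356 and 177 normalized counts in WT littermates and 146, 101, 179 and 160 in MøFoxO1-KO mice. WT 25 lay within the range of the MøFoxO1-KO mice and WT 23 stood far above the rest. The log2 fold change was -1.46 (SE 0.42, edgeR adjusted P = 0.15, DESeq2 adjusted P = 0.0127), and it was -0.86 without WT 23. Of its 50-base stretches, 90.5% occur in another gene, so its counts cannot be told apart with confidence from those of its copies. Summed with Gsta2 and the predicted gene Gm10639, the counts were 1486, 1891, 1239 and 991 in WT littermates and 556, 518, 957 and 774 in MøFoxO1-KO mice, which did not overlap, with a ratio of 0.5 of MøFoxO1-KO to WT. The copy that shares most stretches with Gsta1 (75.7%), Gm3776, was not analysed here, so the sum does not settle how reads were split. Gsta3, the most abundant alpha gene per length at 327 RPKM in WT littermates, had normalized counts of 15884 to 28983 in WT littermates and 12367 to 23953 in MøFoxO1-KO mice, which overlapped.

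**Figure D2:**
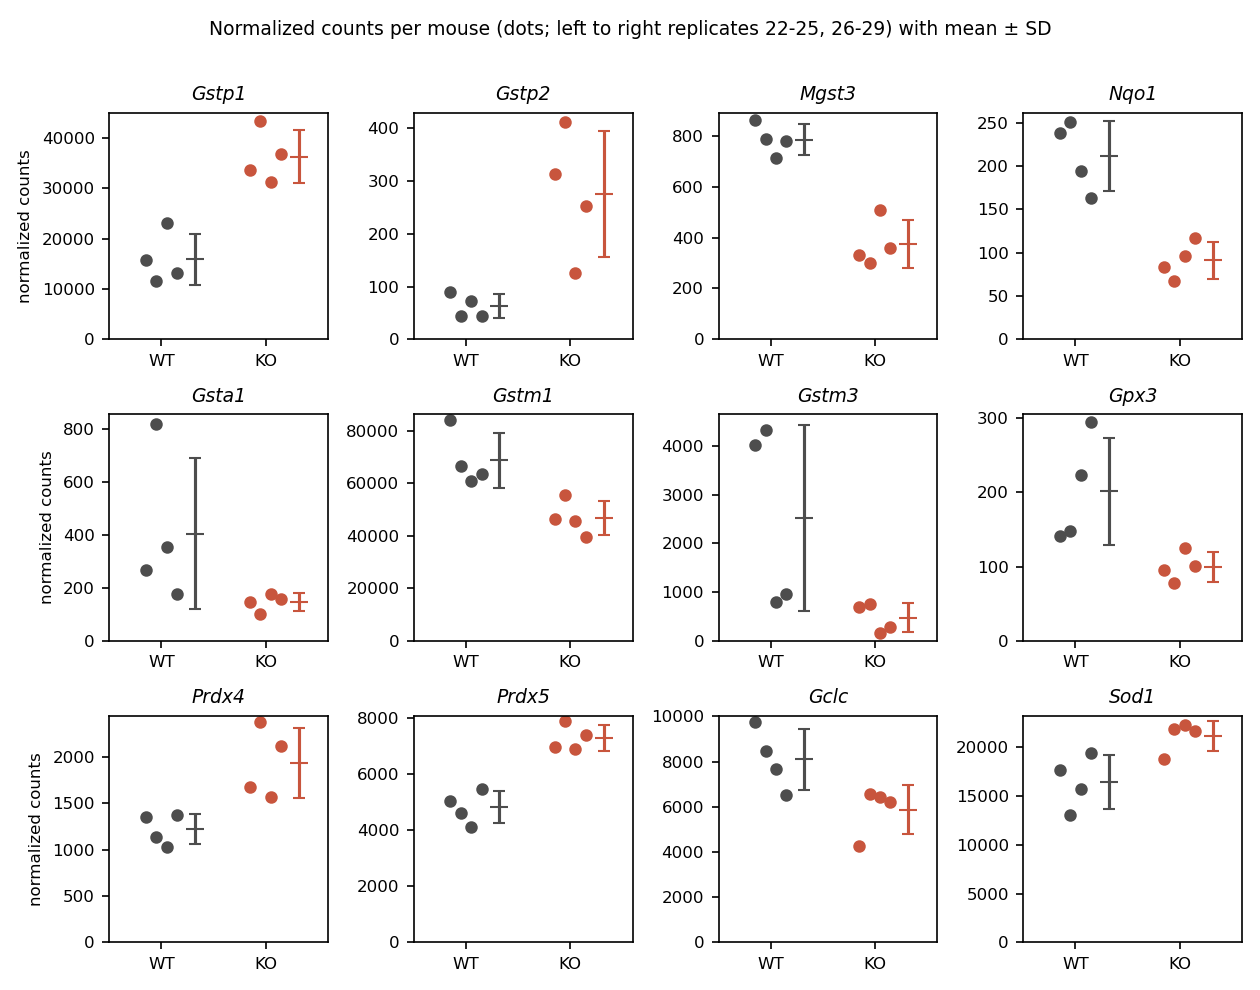
Normalized counts (y axis, linear from 0) of 12 genes in each mouse, WT in grey and MøFoxO1-KO (KO) in red, with the mean ± SD of 4 mice beside the dots. Gstp1 and Gstp2 were higher in every MøFoxO1-KO mouse and Mgst3 and Nqo1 lower, while Gsta1, Gclc and Sod1 overlap.

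The soluble transferases differed in make-up more than in total. Summed over the 21 soluble transferase genes, normalized counts were 131875 ± 16668 in WT littermates and 120341 ± 10812 in MøFoxO1-KO livers (SD, n = 4 each), and these overlapped. The mu class took 60.3, 59.9, 55.0 and 56.1% of them in WT littermates and 42.3, 46.0, 41.6 and 40.4% in MøFoxO1-KO mice. The pi class took 10.4, 9.31, 19.8 and 10.9% in WT littermates and 27.9, 33.1, 27.1 and 34.7% in MøFoxO1-KO mice. Both shares were separate between the groups, and WT 24 had the highest pi share of the WT littermates. Shares of 1 total depend on each other, so the sums are given too: the pi sum went from 16274 ± 5066 to 36884 ± 5288 (2.27-fold) and the mu sum from 76534 ± 12747 to 51417 ± 7512 (0.672-fold), neither overlapping. The alpha class held 19.6 ± 2.79% and 16.0 ± 4.49% of the counts (SD, n = 4 each) and overlapped, as did theta, omega and kappa. These sums are of counts not scaled for length, and Gstp1 and Gstm1 make up most of the pi and mu sums.

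**Figure D3:**
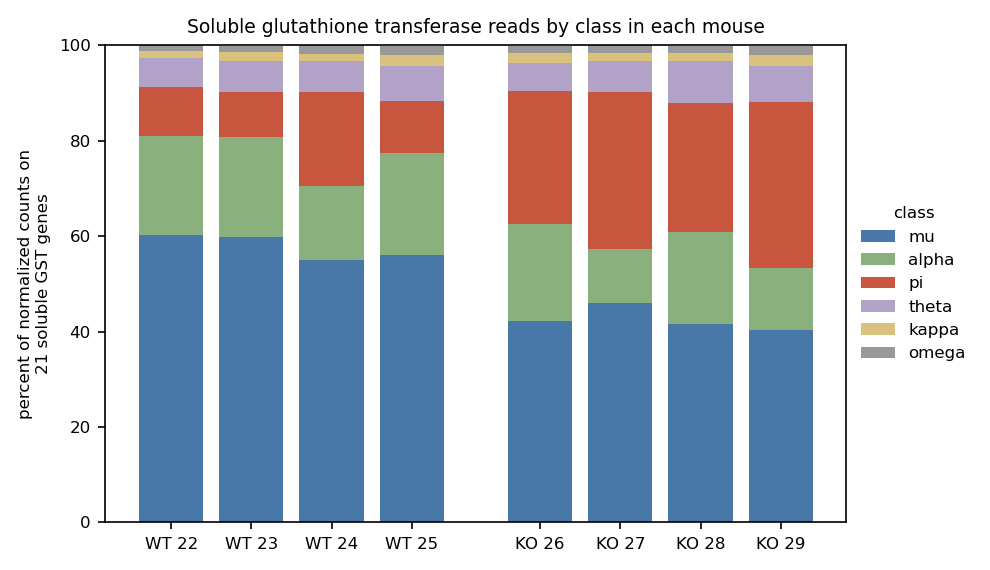
The share of the normalized counts on 21 soluble transferase genes (y axis, percent) taken by each of 6 classes in each mouse (x axis). The pi share was 9.31 to 19.8% in the 4 WT littermates and 27.1 to 34.7% in the 4 MøFoxO1-KO (KO) mice, and the mu share 55.0 to 60.3% and 40.4 to 46.0%.

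The remaining soluble transferases showed little separation. In the theta class, Gstt1, Gstt2 and Gstt3 had log2 fold changes of -0.07 (SE 0.15), 0.35 (SE 0.25) and -0.81 (SE 0.36). Gstt3 had 843, 1166, 320 and 1361 normalized counts in WT littermates against 677, 445, 550 and 426 in MøFoxO1-KO mice, with WT 24 below all of the latter. Gsto1, of the omega class, and Gstk1, of the kappa class, had log2 fold changes of 0.03 (SE 0.14) and -0.01 (SE 0.17).

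**Figure D4:**
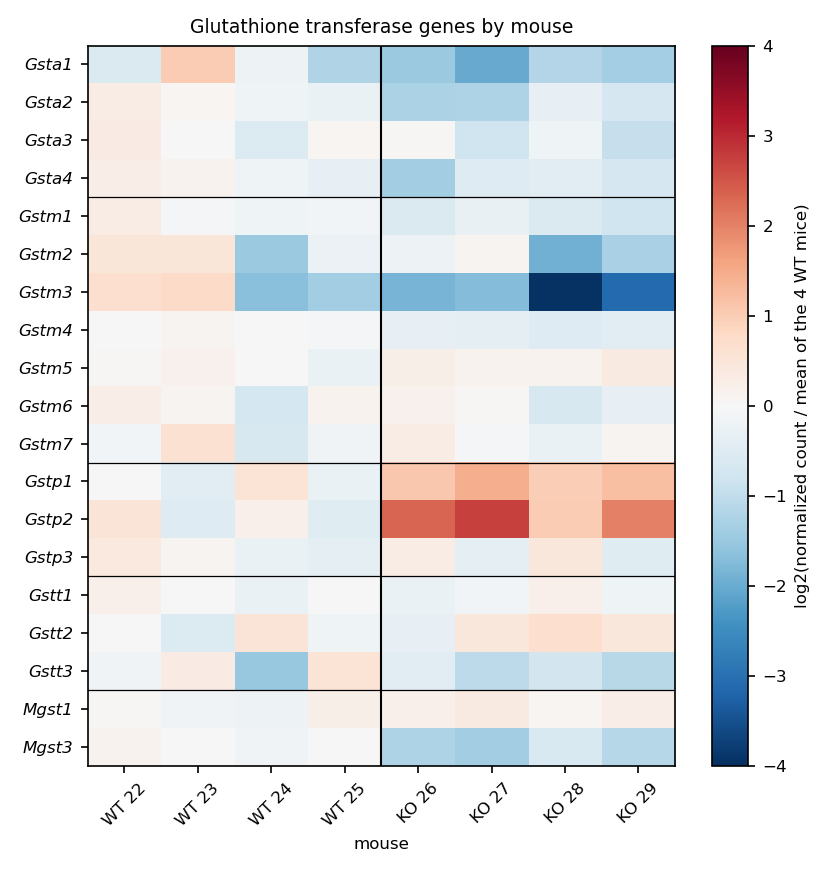
Colour gives log2 of the normalized count over the mean of the 4 WT littermates for 19 transferase genes (rows, lines between classes) in each mouse (columns, KO is MøFoxO1-KO). Gstp1 and Gstp2 are above the WT mean in all 4 MøFoxO1-KO mice and Mgst3 is below it, while Gstm2 and Gstm3 vary within both groups, with WT 24 and KO 28 the lowest of theirs.

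Among microsomal transferases, which sit in the endoplasmic reticulum membrane and also reduce lipid peroxides, Mgst3 (ENSMUSG00000026688) was the only one of the 45 genes to pass the edgeR adjusted P. It had 863, 787, 712 and 780 normalized counts in WT littermates and 333, 299, 509 and 357 in MøFoxO1-KO mice. The groups were well apart, with KO 28 the nearest to the WT littermates. The means were 785 ± 61.7 and 375 ± 93.0 (SD, n = 4 each), a log2 fold change of -1.07 (SE 0.16, 2.09-fold lower, edgeR adjusted P = 0.0337, limma-voom adjusted P = 0.0446). The call was kept with 1 mouse left out only when that was KO 28 (edgeR adjusted P = 0.00455). Leaving out any of the other 7 mice gave edgeR adjusted P values of 0.0554 to 0.133 and log2 fold changes of -1.11 to -0.97. No 50-base stretch of Mgst3 was found in another gene. Mgst1, at 2069 RPKM in WT littermates and 2420 in MøFoxO1-KO livers, had normalized counts of 59659 to 79651 against 72038 to 86746, which overlapped (log2 fold change 0.23, SE 0.15).

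Of the 5 tested glutathione peroxidases, selenium enzymes for the most part, 1 had groups that did not overlap (9.71% of all tested genes did not). Gpx3, the form secreted into plasma, had 141, 147, 223 and 294 normalized counts in WT littermates and 94.7, 77.5, 125 and 101 in MøFoxO1-KO mice. The groups were separate, with KO 28 nearest to WT 22, at a log2 fold change of -1.01 (SE 0.26, edgeR adjusted P = 0.127). Gpx1, the cytosolic form and by far the most abundant per length at 2011 RPKM in WT littermates, ranged from 41600 to 54077 normalized counts against 45789 to 64302 and overlapped, at a log2 fold change of 0.24 (SE 0.17). Gpx4, which reduces lipid hydroperoxides in membranes, had 0.03 (SE 0.15), and Gpx7 and Gpx8 had -0.51 (SE 0.26) and -0.58 (SE 0.47) at few counts.

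Peroxiredoxins reduce peroxides with thioredoxin or, for Prdx6, glutathione as the donor. Prdx5, found in mitochondria, peroxisomes and cytosol, had 5056, 4628, 4136 and 5461 normalized counts in WT littermates and 6980, 7900, 6916 and 7407 in MøFoxO1-KO mice. The 4 MøFoxO1-KO mice lay close together and above all WT littermates, at a log2 fold change of 0.60 (SE 0.13, 1.51-fold, edgeR adjusted P = 0.0968). Of its 50-base stretches 15.5% are shared with the overlapping gene Trmt112, and the library kit named in the labels does not mark strand. Prdx4, the form of the endoplasmic reticulum, had 1351, 1135, 1032 and 1373 against 1673, 2376, 1574 and 2115 normalized counts, again separate, at 0.66 (SE 0.16, edgeR adjusted P = 0.12). Prdx1, Prdx2, Prdx3 and Prdx6 overlapped, with log2 fold changes of -0.04 (SE 0.12), 0.21 (SE 0.11), -0.38 (SE 0.18) and 0.21 (SE 0.15).

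Glutathione synthesis begins with glutamate-cysteine ligase, made of the catalytic subunit Gclc and the modifier subunit Gclm, and ends with glutathione synthetase, Gss. Gclc had 9751, 8494, 7660 and 6539 normalized counts in WT littermates and 4255, 6583, 6454 and 6228 in MøFoxO1-KO mice. The groups touched, since WT 25 lay just below KO 27, and the log2 fold change was -0.46 (SE 0.18, edgeR adjusted P = 0.237). Gclm had 5014, 5455, 4806 and 4751 against 5965, 5194, 4283 and 4259 normalized counts, mixed between groups, at -0.02 (SE 0.14, edgeR adjusted P = 0.951). The direction of Gclm turned with an offset for gene length, to 0.0703. Gsr, which regenerates reduced glutathione, had 1222, 1466, 1713 and 1380 against 1267, 1236, 1149 and 1405 normalized counts, also mixed (-0.19, SE 0.13, edgeR adjusted P = 0.488), and Gss had -0.13 (SE 0.14).

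In the Nrf2-Keap1 axis the regulators overlapped between groups. Nfe2l2 had 1306, 1325, 1378 and 1103 normalized counts in WT littermates and 1111, 1320, 1738 and 1225 in MøFoxO1-KO mice, with KO 28 the highest (log2 fold change 0.08, SE 0.15, edgeR adjusted P = 0.835). It was -0.0555 without KO 28. Keap1 had 833, 805, 692 and 682 against 752, 636, 663 and 683 normalized counts (-0.14, SE 0.11, edgeR adjusted P = 0.566).

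Nqo1 (ENSMUSG00000003849), a quinone reductase widely used as a readout of Nrf2, had 238, 251, 194 and 163 normalized counts in WT littermates and 83.2, 66.7, 96.6 and 117 in MøFoxO1-KO mice. The groups were separate, and the lowest WT littermate was 25 and the highest MøFoxO1-KO mouse 29. The means were 212 ± 40.6 and 91.0 ± 21.4 (SD, n = 4 each), a log2 fold change of -1.22 (SE 0.21, 2.32-fold lower, edgeR adjusted P = 0.052). It passed with an offset for gene length (-1.39, edgeR adjusted P = 0.0407), and not with any 1 mouse left out. Srxn1, Txnrd1 and Hmox1, which are textbook Nrf2 targets as well, overlapped between groups. Srxn1, which repairs oxidized peroxiredoxins, had 995, 1325, 1417 and 967 against 706, 826, 676 and 1135 normalized counts, with KO 29 inside the WT range (-0.49, SE 0.19, edgeR adjusted P = 0.247). Txnrd1, the cytosolic thioredoxin reductase, had 1893, 2613, 2199 and 1742 against 1682, 1800, 1606 and 1899 (-0.27, SE 0.14, edgeR adjusted P = 0.37). Hmox1, the heme oxygenase that macrophages use too, had 306, 280, 488 and 251 against 253, 352, 257 and 550, and WT 24 and KO 29 stood apart from the rest of their groups (0.09, SE 0.28, edgeR adjusted P = 0.906). Without KO 29 the Hmox1 value was -0.21.

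Superoxide dismutases and catalase overlapped between groups. Sod1, the cytosolic copper-zinc enzyme, had 17639, 13040, 15680 and 19393 normalized counts in WT littermates and 18838, 21830, 22283 and 21704 in MøFoxO1-KO mice, where WT 25 lay above KO 26. Its log2 fold change of 0.36 (SE 0.15, edgeR adjusted P = 0.26) was 0.03 with an offset for gene length. Sod2, of mitochondria, had 4003, 4229, 2994 and 3795 against 3675, 3375, 3612 and 3486 (-0.09, SE 0.13, edgeR adjusted P = 0.78). Cat, the catalase of peroxisomes, had 53000, 67164, 48259 and 48295 against 56565, 48990, 47093 and 42795 (-0.15, SE 0.16, edgeR adjusted P = 0.683), with WT 23 the highest mouse.

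Of 25 tested genes outside this set that are known to be induced through Nrf2, 19 had a negative log2 fold change, with a median of -0.29 over the 25. At an edgeR adjusted P under 0.05, 1 was lower and 0 higher (0.173 and 0.121% of all tested genes), and DESeq2 passed 7 lower and 0 higher (1.72 and 2.24%). Without adjustment 12 were lower and 0 higher at an edgeR P under 0.05 (8.06 and 8.65% of all tested genes), and 5 lay below every WT littermate (4.71%). Abcc4, a conjugate efflux pump, fell: it had 261, 430, 143 and 121 normalized counts in WT littermates and 19.1, 33.4, 48.3 and 33.5 in MøFoxO1-KO mice, well apart, at -2.82 (SE 0.44, edgeR adjusted P = 0.0337, limma-voom adjusted P = 0.114). The Abcc4 call was lost without WT 22, WT 25, KO 26, KO 27 or KO 29 (edgeR adjusted P up to 0.135). Me1, Cbr1 and Ugdh, which supply NADPH, reduce carbonyls and supply glucuronic acid, had log2 fold changes of -1.99 (SE 0.46), -0.91 (SE 0.19) and -0.66 (SE 0.15) with edgeR adjusted P values of 0.111, 0.0968 and 0.107. In Me1, KO 28 had 1348 normalized counts against 243 to 593 in the other MøFoxO1-KO mice, and without KO 28 the log2 fold change was -2.65 (edgeR adjusted P = 0.00884).

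**Figure D5:**
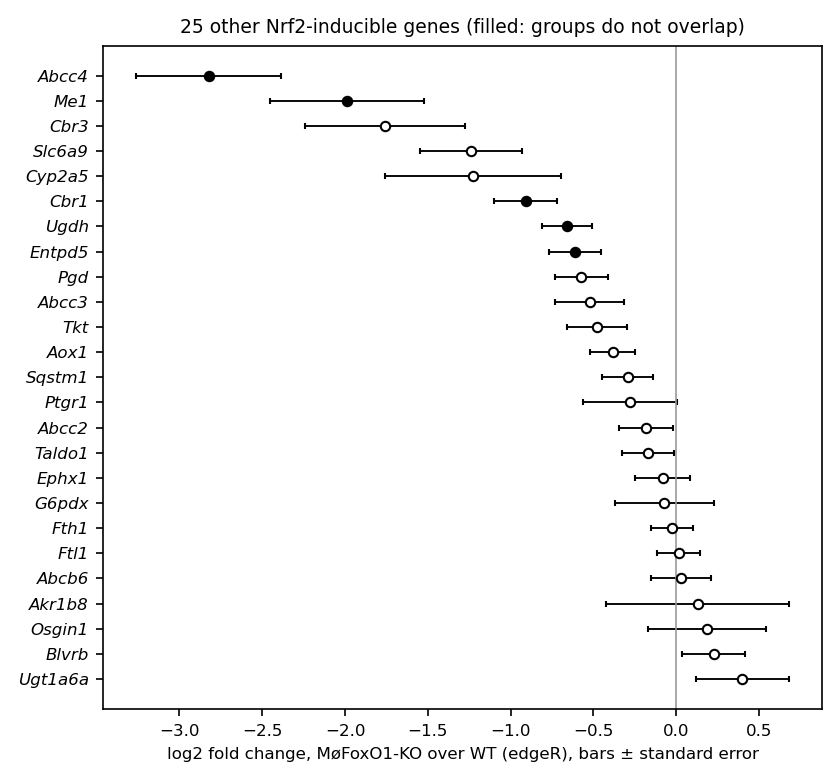
The log2 fold change (x axis, MøFoxO1-KO over WT, edgeR, bars of ± 1 SE) of 25 Nrf2-inducible genes outside the set, in order down the y axis. Filled points mark the 5 genes whose groups do not overlap, all at negative values, from Abcc4 at -2.82 to Entpd5 at -0.61.

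Lists of related redox genes were less one-sided. Of 17 tested thioredoxins, glutaredoxins and methionine sulfoxide reductases, 9 were positive and 8 negative. The edgeR adjusted P was passed by 0 of them (0.294% of all tested genes). At an unadjusted P under 0.05, 2 were higher and 1 lower, a share near the 16.7% of all tested genes. DESeq2 passed 1 in each direction (3.97% of all tested genes). Msrb1 and Txn2 lay above all WT littermates (5.00% of all tested genes), at 0.46 (SE 0.12) and 0.25 (SE 0.11). Msrb3 lay below them (4.71%) at -0.84 (SE 0.19), and it passed without KO 28 (-1.02, edgeR adjusted P = 0.0376). Of 19 tested genes of glutathione supply and turnover, 12 were positive and 7 negative, and 0 passed the edgeR adjusted P (0.294% of all tested genes). Unadjusted, 2 were higher and 3 lower (8.65 and 8.06% of all tested genes), and DESeq2 passed 1 higher and 2 lower (2.24 and 1.72%). In this list 3 lay below and 2 above all WT littermates (4.71 and 5.00% of all tested genes). Chac1, which degrades glutathione, lay below all WT littermates at -1.23 (SE 0.30), as did Gstcd at -0.70 (SE 0.22) and Ggt6 at -0.58 (SE 0.13). Hagh and Chac2 lay above all WT littermates, at 0.45 (SE 0.14) and 0.44 (SE 0.15).

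Of 17 tested enzymes that make superoxide or hydrogen peroxide, 10 were positive and 7 negative, and 2 passed the edgeR adjusted P, both lower (0.173% of all tested genes were). Without adjustment 5 were higher and 4 lower at an edgeR P under 0.05, against 8.65 and 8.06% of all tested genes. The 5 higher ones were Cyba (1.09, SE 0.45), Ncf1 (1.03, SE 0.43) and Rac2 (0.81, SE 0.33) of the phagocyte NADPH oxidase, Nox4 (0.42, SE 0.13) and Paox (0.43, SE 0.17), named after their values were seen, and all 5 overlapped between groups. Hao2, a peroxisomal hydroxyacid oxidase, fell: it had 330, 570, 50.7 and 562 normalized counts in WT littermates and 11.5, 1.19, 17.99 and 11.2 in MøFoxO1-KO mice, with WT 24 far below its group (log2 fold change -5.12, SE 0.78, edgeR adjusted P = 0.0337, limma-voom adjusted P = 0.237). Maoa, the mitochondrial monoamine oxidase, fell: it had 176, 179, 185 and 182 against 61.2, 59.6, 52.1 and 102 normalized counts (-1.39, SE 0.21, edgeR adjusted P = 0.0337). Both calls were lost without WT 22, WT 23, WT 25, KO 26 or KO 27, and that of Maoa also without WT 24 and that of Hao2 without KO 29 (edgeR adjusted P up to 0.138). Hao2, Maoa and Smox lay below all WT littermates (3 of the 17, against 4.71% of all tested genes). Smox, the spermine oxidase, stood at -0.87 (SE 0.25, edgeR adjusted P = 0.148).

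Marker genes of liver cell types also varied, and their part in the values above was not tested. Hepatocyte markers were positive in 9 of 10 genes, with summed normalized counts of 1365230 to 1747180 in WT littermates and 1699150 to 2348540 in MøFoxO1-KO mice. Of the 10, 3 lay above all WT littermates (5.00% of all tested genes): Serpina1c (1.49, SE 0.24), Apoa1 (1.07, SE 0.21) and Serpina1a (0.90, SE 0.20). Only Serpina1c passed the edgeR adjusted P (0.037, limma-voom adjusted P = 0.0462). With 1 mouse left out it passed in 2 of 8 fits (edgeR adjusted P up to 0.135). Macrophage markers were positive in 13 of 16, with sums of 5341 to 8830 and of 5912 to 24371, the highest in KO 27 and KO 29. These mice also had the highest Gstp1 and the lowest Gsta3 of their group, a match picked after the values were seen. In Gstp2, KO 26 (313 normalized counts) lay above KO 29 (252). The macrophage list was not of 1 direction. At an edgeR P under 0.05 without adjustment, 8 of the 16 were higher and 2 lower (8.65 and 8.06% of all tested genes). Gpnmb fell and was its only marker past the edgeR adjusted P (-4.13, SE 0.67, adjusted P = 0.0382, where 0.173% of all tested genes were lower). Trem2 (-3.88, SE 0.84) and Gpnmb lay below all WT littermates (4.71% of all tested genes), while Timd4 (2.08, SE 0.44) lay above them (5.00%). Marco had the largest positive value (5.18, SE 1.06, edgeR adjusted P = 0.087) but overlapped between groups. Lyz2, the remaining negative marker, overlapped too (-0.77, SE 0.64). The Gpnmb call was lost in limma-voom (adjusted P = 0.138) and with any mouse but KO 28 left out (edgeR adjusted P = 0.0513 to 0.156), and Timd4 passed without KO 28 (2.39, edgeR adjusted P = 0.00867). Sums ranged from 2149 to 5353 and 4029 to 6087 for endothelial markers (8 of 8 positive), 5165 to 8439 and 5675 to 9439 for stellate cell markers (5 of 10), 1314 to 1752 and 990 to 1508 for cholangiocyte markers (0 of 6), 6339 to 23226 and 8130 to 16683 for red cell markers (2 of 7) and 72.6 to 283 and 188 to 408 for lymphocyte markers (6 of 6), with WT littermates first. No marker was at 0 in all 8 mice.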

How the data were processed

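Liver RNA of 4 MøFoxO1-KO mice and 4 WT littermates was sequenced after poly-A selection with a kit that does not mark strand. The authors deposited raw read counts per Ensembl gene with summed exon lengths. The submitters' processing notes name STAR, featureCounts and mm10, and versions, the strand setting and the handling of multi-mapping reads are not given in the sources used here. Symbols came from GENCODE M21 (46005 of 46517 genes matched, and the others hold 0.0399% of counts). Replicates are separate mice.

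Genes were filtered with filterByExpr (minimum count 10, minimum total 15), which left 13278, normalized by TMM (factors 0.902 to 1.15) and tested with edgeR 4.0.16 in R 4.3.3 (common biological coefficient of variation 0.256), with Benjamini-Hochberg adjustment. RPKM was computed from normalized counts and exon length. Alternatives were DESeq2 1.42.0, limma-voom (limma 3.58.1), the robust option, other size factors and filters, offsets for gene length and, chosen after seeing the data, GC with gene length, other thresholds, summed classes and leaving out each of the 8 mice. The tests were tried on simulated counts with 200 changed genes. Promoters came from RefSeq (aligned in Biopython 1.88), and stretches of 50 bases from M21 transcripts. Tables were handled with pandas 2.3.3 and plotted with matplotlib 3.10.9.

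The genes of the set, the 4 lists of related genes and the 7 marker lists were chosen with earlier results of these data known. Values by mouse are given for genes that passed the edgeR or DESeq2 adjusted P or whose groups did not overlap, and for 12 further genes (Nfe2l2, Keap1, Nqo1, Hmox1, Gclc, Gclm, Gsr, Sod1, Sod2, Cat, Txnrd1 and Srxn1) whatever their values. From the related lists, genes past the edgeR adjusted P and up to 3 with the largest change among those whose groups did not overlap are named. Gsta3, Gstm2, Gstm6, Gstt3, Mgst1 and Gpx1 were described after their values were seen. So were, of the lists, Hagh, Chac2, Gpnmb, Trem2, Timd4, Marco, Lyz2, Serpina1c, Apoa1 and Serpina1a.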

Additional observations from a re-analysis of the deposited data

Results flagged for a closer look

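The 24 genes with values by mouse gave 48 groups of 4 mice, in each of which the highest and the lowest mouse were compared with the rest, and 2 groups held a mouse whose gap to its nearest neighbour exceeded Dixon's critical share of the group's range. Chance does this in about 1 of 20 groups. Both were KO 26. Sod1 had 18838 normalized counts there, against 21704 to 22283 in the other MøFoxO1-KO mice, and Gclc had 4255, against 6228 to 6583. The gaps were 0.832 and 0.847 of the range.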

How the results depend on the processing

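The number of the 45 tested genes past the adjusted P was 1 with edgeR, limma-voom, upper-quartile normalization, DESeq2's size factors in edgeR and at least 10 counts in every mouse. It was 12 with DESeq2, 2 with the robust option of edgeR, 5 without the filter on low counts, 2 with an offset for gene length, 2 with an offset for GC and gene length, 0 at an adjusted P under 0.01, 5 at an adjusted P under 0.1, and 0 to 2 with a mouse left out. At the additional fold change limit the number was 0 with edgeR, 2 with DESeq2, 2 without the filter and 0 to 1 with a mouse left out. Of all tested genes, edgeR passed 0.294% (0.188% at the fold limit) and DESeq2 passed 3.97% at no fold limit. For the other settings such shares were not computed, so these counts do not show whether the set differed from other genes there. The number of genes whose groups did not overlap, 12, was 13 to 16 with a mouse left out, when 11.4 to 16.9% of all tested genes did not overlap, and the median stayed between -0.19 and -0.06 under all alternatives.

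Directions turned for 10 of the 45 genes, all but Gstm5 (0.22) within 0.1 of 0. With the gene length offset they were -0.106 for Gpx4, -8.13e-05 for Gstm5, -0.135 for Gstm7, -0.0607 for Gsto1, -0.287 for Gstp3 and 0.0703 for Gclm, and with the GC and gene length offset -0.119 for Gpx4, -0.15 for Gstm7, -0.0506 for Gsto1, -0.307 for Gstp3 and 0.0865 for Gclm. Gstk1 was 0.017 with limma-voom and 0.0209 with upper-quartile normalization. With a mouse left out, values ranged from -0.208 (without KO 29) to 0.336 for Hmox1, -0.0555 (without KO 28) to 0.159 for Nfe2l2, -0.13 to 0.0492 for Gclm, -0.0695 to 0.118 for Gpx4, -0.142 to 0.101 for Gstk1, -0.123 to 0.321 for Gstm7, -0.0402 to 0.137 for Gsto1, -0.0804 to 0.0283 for Prdx1 and -0.125 to 0.188 for Gstp3. The split of 17 positive and 28 negative genes was 13 and 32 with the gene length offset. The cause was not tested. No paired analysis was possible because the groups share no replicate numbers. Total counts of 15253218 to 18025481 limit the precision for genes such as Gpx8, the only tested gene of the set with under 10 counts in a mouse.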
